A study of Homo sapiens with 8 samples.

Results

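The abundant short noncoding RNAs outside the ribosome and the spliceosome were followed in mitotic spindle preparations of HCT116 cells, a human colorectal carcinoma line in wide use. They were 7SK RNA (RN7SK), the 7SL RNAs of the signal recognition particle (RN7SL1, RN7SL2), the RNAs of RNase P (RPPH1) and RNase MRP (RMRP), and the Y RNAs RNY1, RNY3, RNY4 and RNY5. The members were chosen by gene symbol, and all 9 were present among the 17788 genes of the authors' expression table. RPPH1 and the Y RNAs RNY1, RNY4 and RNY5 were lower in spindles than in whole cells. RN7SK, RN7SL1 and RN7SL2 also lay lower in every spindle library than in input of the same genotype. Their changes missed the threshold of the main test but were called in the authors' deposited table. The share of all genes whose spindle and input libraries separate like this was not computed, which holds for each member below. RMRP, whose RNA is a relative of RPPH1, was not lower. In STAU1-KO spindles RPPH1 lay lower again, at 139.6 ± 19.9 FPKM against 1905 ± 566 in WT spindles (SD, n = 2).

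Total RNA was sequenced in 4 groups of 2 libraries, namely WT input, WT spindle, STAU1-KO input and STAU1-KO spindle, where input is whole-cell RNA. All groups shared a synchronization, with 16 h of the CDK1 inhibitor RO-3306, release into 100 µM taxol for 15 min, and collection of mitotic cells by shake-off. Spindles were pelleted through glycerol, and libraries were stranded and depleted of ribosomal RNA. The STAU1-KO cells were made with CRISPR and were deprived of Staufen1, which binds double-stranded RNA. A single clone code stands on all 4 STAU1-KO libraries, and genotype and clone cannot be told apart. The series calls the replicates biological, without saying whether they are separate cultures, and p-values measure only the spread between these libraries.

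RNA polymerase III makes all of these RNAs, which work as scaffolds of protein particles. 7SK RNA, capped by MEPCE and held by LARP7, binds HEXIM proteins and keeps the transcription elongation kinase P-TEFb inactive, and it is mainly nuclear. 7SL RNA carries the proteins of the signal recognition particle, which bring ribosomes that make secreted proteins to the endoplasmic reticulum. RNase P trims the 5′ ends of tRNA precursors, and RNase MRP cuts precursor ribosomal RNA in the nucleolus. Their RNAs share a conserved core and most of their proteins. Y RNAs bind the Ro60 protein and La, and they are known for roles in RNA quality control and DNA replication.

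The sequences below show what relates members of a family to each other. They are GENCODE release 29 transcripts on GRCh38, written as DNA from 5′ to 3′. They are given for 5 of the 9 members, matched by symbol, and the others are named only. RPPH1 and RN7SK are printed to their first 300 bases. The authors' own build was GRCh37, for which no coordinates are given here. RN7SK lies at chr6:52995621-52995948 (+ strand). RPPH1 lies at chr14:20343075-20343407 (- strand) and RMRP at chr9:35657751-35658018 (- strand). RNY1 lies at chr7:148987136-148987248 (- strand) and RNY4 at chr7:148963315-148963410 (+ strand). Each is a noncoding gene of 1 exon.

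RPPH1 and RMRP are shown because their levels went apart. Capitals mark the single match in each to GAANGTC on the transcript strand, at position 70 in RMRP and 71 in RPPH1. Among 195239 GENCODE transcripts at least as long as RMRP, 5.26% hold this stretch in a first window of that length.
RPPH1: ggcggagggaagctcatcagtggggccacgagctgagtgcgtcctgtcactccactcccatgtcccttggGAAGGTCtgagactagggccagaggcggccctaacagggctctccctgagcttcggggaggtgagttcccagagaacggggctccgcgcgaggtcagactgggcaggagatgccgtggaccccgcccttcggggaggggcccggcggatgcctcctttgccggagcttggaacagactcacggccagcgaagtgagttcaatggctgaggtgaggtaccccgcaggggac
RMRP: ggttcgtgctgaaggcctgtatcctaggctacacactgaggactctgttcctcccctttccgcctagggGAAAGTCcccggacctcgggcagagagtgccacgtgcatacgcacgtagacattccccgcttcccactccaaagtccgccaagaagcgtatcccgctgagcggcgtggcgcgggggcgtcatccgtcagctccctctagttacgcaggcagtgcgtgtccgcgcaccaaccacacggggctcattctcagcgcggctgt

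In RN7SK, capitals mark GATC (GAUC in RNA), letters that HEXIM proteins recognise in its first hairpin. It occurs 3 times, and 7.26% of the first windows of that length among 190637 GENCODE transcripts hold as many, while 60.1% hold at least 1. The reverse complement of GATC is GATC itself, so both strands hold the same matches.
RN7SK: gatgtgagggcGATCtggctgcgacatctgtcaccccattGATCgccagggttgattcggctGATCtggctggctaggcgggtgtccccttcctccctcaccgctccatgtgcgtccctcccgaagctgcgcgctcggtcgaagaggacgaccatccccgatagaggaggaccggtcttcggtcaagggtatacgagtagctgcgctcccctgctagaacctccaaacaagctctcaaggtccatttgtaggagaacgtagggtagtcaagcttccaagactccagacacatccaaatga

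RNY1 and RNY4 are shown for their shared ends, which pair into the stem that Ro60 binds. Capitals mark the first 11 bases, which they have in common, and the 6 bases that are their longest shared stretch within the last 20.
RNY1: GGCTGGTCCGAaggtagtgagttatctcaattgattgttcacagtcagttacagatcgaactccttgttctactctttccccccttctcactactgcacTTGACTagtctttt
RNY4: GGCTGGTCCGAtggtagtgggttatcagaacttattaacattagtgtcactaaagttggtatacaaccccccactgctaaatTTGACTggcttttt

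The deposited identifiers fix what was counted. The identifier listed as RPPH1 is in GENCODE release 29 the locus AL355075.4, which spans 638 nt and holds RPPH1 on the same strand. RefSeq gives the RNA itself 341 nt, so that RPPH1 levels per length would be understated against the other members if all reads came from it. The length cancels in its changes, but reads from the rest of the locus were not told apart from those of RPPH1. The listed lengths were 331 nt for RN7SK, 300 nt for RN7SL1, 297 nt for RN7SL2, 268 nt for RMRP and 113 nt for RNY1. RNY3, RNY4 and RNY5 had 102 nt, 96 nt and 79 nt. RN7SL1 overlaps the ribosomal protein gene RPS29 on the opposite strand, and whether the counting used strand is not given in the sources used here. RPS29 stood at 11.4 to 210.3 FPKM, far under RN7SL1 in each library. RN7SL2 overlaps the long noncoding RNA AL627171.2 on its own strand.

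Levels below are FPKM, reads per kilobase and per M reads, which the authors scaled between libraries. After that scaling they are relative levels, but no plain share of a library's reads. Fewer cells with an RNA, less of it per cell and more of other RNAs cannot be told apart from them. Reads recovered from the FPKM values summed to between 5.21 M and 14.6 M per library over the listed genes. The 9 RNAs held 6.01% to 7.76% of these reads in the 4 input libraries and 1.69% to 2.42% in the 4 spindle libraries. Of summed FPKM they held 41.1% to 46.7% in input and 14.0% to 21.1% in spindles. WT spindle replicate 2 stood apart, with 46.1% of its reads on the 28S ribosomal RNA gene RNA28S5, against 10.8% to 13.6% in the other spindle libraries and 1.29% to 1.64% in input. STAU1 itself stood at 31.9 and 28.5 FPKM in WT input. In the knockout input it was lower, at 4.59 and 4.88 FPKM (limma, log2 change -2.44, adjusted p = 0.00889). In spindles it stood at 9.83 FPKM in both STAU1-KO libraries and at 11.5 and 16.2 FPKM in WT, a change of -0.44 that did not pass (limma adjusted p = 0.113), and it was higher in STAU1-KO spindles than in STAU1-KO input (0.92, limma adjusted p = 0.00488). The check of the knockout thus rests on the input libraries. Of the epithelial and mitotic markers, KRT8 stood at 86.2 to 443.5 FPKM and CCNB1 at 32.4 to 247.1 FPKM. CDX1 and VIL1 of colon epithelium, COL1A2 of fibroblasts, PTPRC of blood cells, PECAM1 of endothelium and ALB of liver were not among the listed genes. COL1A1, a collagen gene of fibroblasts, stood at 0.753 to 0.965 FPKM in input and at 2.65 to 6.69 FPKM in spindles, and its part in the results was not tested.

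In WT input the order by FPKM on the listed lengths was RN7SL1, RN7SK, RN7SL2, RMRP, RPPH1, RNY1, RNY5, RNY4 and RNY3. Mean FPKM was 77017 ± 2063 for RN7SL1, 57425 ± 5260 for RN7SK and 57063 ± 1250 for RN7SL2 (SD, n = 2). RN7SK and RN7SL2 did not differ beyond their spread. RMRP (24896 ± 2373) lay above RPPH1 (21681 ± 411) in both libraries on those lengths. On the RefSeq length, if all its reads came from the RNA itself, RPPH1 would stand at 40565 ± 768 FPKM in WT input. In STAU1-KO input it would stand at 29232 ± 886 FPKM. It would lie above RMRP in both, and its place in spindles would not change. The order of the means in STAU1-KO input was the same, with RN7SL1 (54005 ± 2659) and RN7SK (52209 ± 2814) within their spread, as were RNY5 and RNY4 (17.4 and 20.2 against 9.53 and 18.0 FPKM). In WT spindles RMRP came first, at 34816 ± 1255. RN7SL2 (17739 ± 11852) and RN7SL1 (12925 ± 7382) followed and overlapped, then RN7SK (6544 ± 571), which lay within the spread of RN7SL1, RPPH1 (1905 ± 566) and RNY1 (3.93 ± 0.229). In STAU1-KO spindles RMRP was again first at 24208 ± 3449, before RN7SL1 (16368 ± 173), RN7SL2 (14424 ± 931), RN7SK (4363 ± 448), RPPH1 and RNY1.

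**Figure D1:**
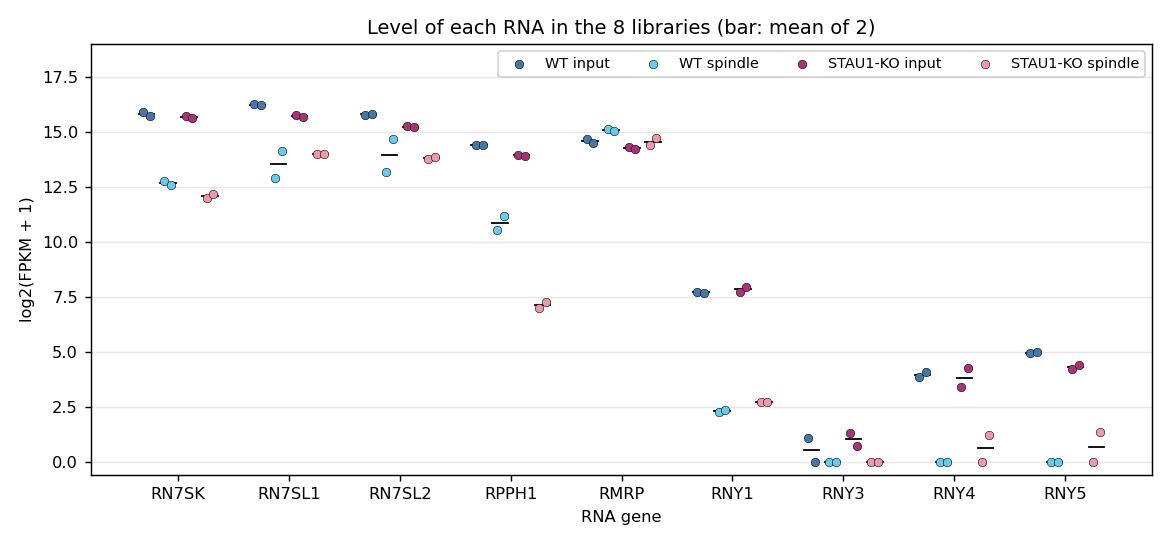
Level of each RNA in every library, as log2(FPKM + 1), with a bar at each group mean of 2 libraries. RMRP has its spindle and input points together near the top, while the spindle points of RPPH1 and RNY1 lie far below their input points.

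RPPH1, the catalytic RNA of RNase P, fell in spindles of both genotypes. In WT cells it stood at 21391 and 21972 FPKM in input and at 1505 and 2305 FPKM in spindles. In STAU1-KO cells it stood at 15959 and 15289 FPKM in input and at 125.6 and 153.7 FPKM in spindles. The groups do not overlap in either genotype, and the input mean was 11.4-fold the spindle mean in WT and 112-fold in the knockout. The reads behind the 2 STAU1-KO spindle values were 904 and 785, against 118163 to 146616 in the input libraries. The limma change on the log2(FPKM + 1) scale was -3.54 in WT (SE 0.56, adjusted p = 0.00227) and -6.80 in the knockout (SE 0.56, adjusted p = 0.000401). With the WT groups fitted alone, the WT adjusted p in limma was 0.228.

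RMRP, the RNA of RNase MRP, did not share this pattern. It stood at 26574 and 23218 FPKM in WT input and at 35704 and 33929 FPKM in WT spindles. STAU1-KO values were 20104 and 18928 FPKM in input and 21770 and 26647 FPKM in spindles. On the authors' scaling both spindle libraries lay above both input libraries in each genotype, by 1.40-fold and 1.24-fold on the means. Neither change passed the test (limma, 0.49 with SE 1.62 and adjusted p = 0.811 in WT, 0.30 and adjusted p = 0.892 in STAU1-KO cells). Without the trend in the prior variance RMRP passed as higher in WT (limma adjusted p = 0.0248) but not in STAU1-KO cells (0.119), and by limma-voom it passed in neither (adjusted p = 0.185 and 0.412). The authors' deposited table gave 0.48 with an adjusted p of 0.0108 in WT and 0.31 with an adjusted p of 0.125 in STAU1-KO cells. By share of library reads RMRP overlapped in WT, at 0.680% and 0.613% in input and 1.29% and 0.595% in spindles. In STAU1-KO cells the shares were 0.550% and 0.523% in input and 0.679% and 0.836% in spindles.

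Read ratios within a library set the pair side by side, and no scaling between libraries can change them. RMRP had 0.522 and 0.444 reads per RPPH1 read in WT input, and the STAU1-KO input ratios were 0.529 and 0.520. In WT spindles the ratio was 9.96 and 6.18, and in STAU1-KO spindles 72.8 in both libraries. The input libraries of both genotypes lie close together, and the 3 levels (input, WT spindle, STAU1-KO spindle) do not overlap. RN7SK behaved otherwise against RMRP, with 2.84 and 2.86 reads per RMRP read for WT input, 3.33 and 3.28 for STAU1-KO input, 0.240 and 0.224 in WT spindles and 0.230 and 0.217 in STAU1-KO spindles. For that ratio the spindle libraries of both genotypes overlap.

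**Figure D2:**
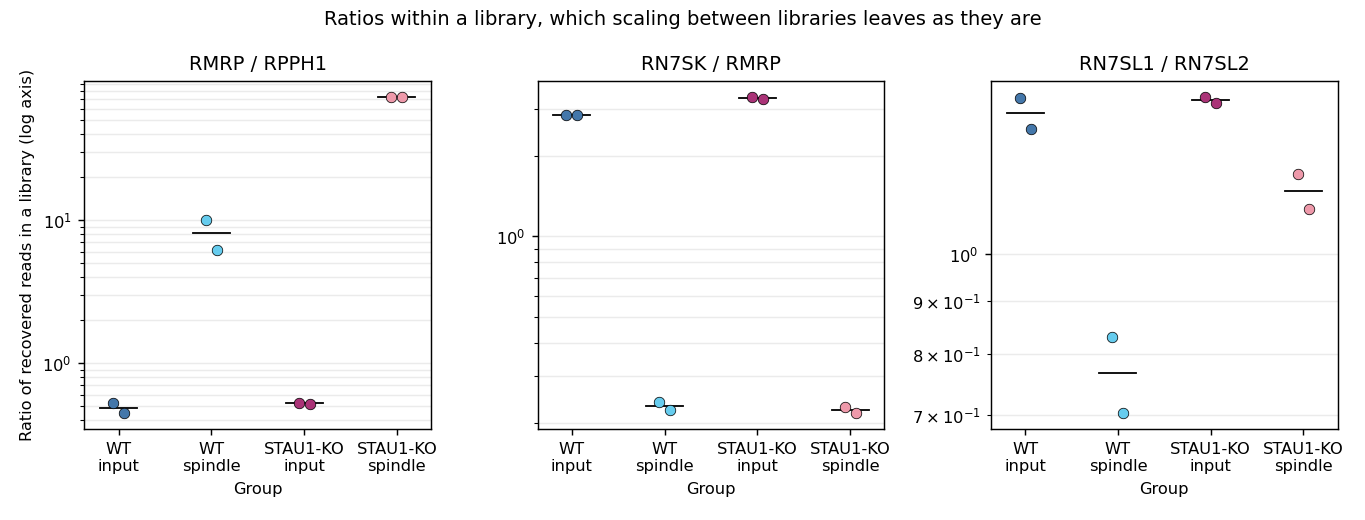
Ratios of recovered reads within each library on log axes, for RMRP to RPPH1, RN7SK to RMRP and RN7SL1 to RN7SL2, with a bar at each group mean of 2. The RMRP to RPPH1 ratio is near 0.5 in all input libraries and 72.8 in both STAU1-KO spindle libraries, whereas the RN7SK to RMRP ratio is alike in the spindles of both genotypes.

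RNY1, RNY4 and RNY5 were lower in spindles of both genotypes, and RNY3 had too few reads in any library to tell. RNY1 stood at 210.6 and 204.7 FPKM in WT input and at 3.77 and 4.10 FPKM in WT spindles, from 206, 229, 3 and 2 reads. In STAU1-KO cells it stood at 212.6 and 242.6 FPKM in input and at 5.49 and 5.53 FPKM in spindles, from 315, 412, 7 and 5 reads. All 4 spindle libraries lie far below all 4 input libraries. Scaled for library size, reads were 53.3-fold lower in WT spindles (95% exact interval 22.6 to 165) and 41.5-fold lower in STAU1-KO spindles (23.6 to 80.7). These intervals cover counting error only. RNY1 fell by 5.40 on the log2(FPKM + 1) scale in WT (SE 0.11, limma adjusted p = 4.88e-05) and the value for STAU1-KO was -5.13 (limma adjusted p = 6.73e-05). These tests rest on few spindle reads, and the SE does not reflect the wide counting intervals above.

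RNY5 had 20 and 24 reads for WT input, 18 and 24 for STAU1-KO input, none in WT spindles and 0 and 1 in STAU1-KO spindles. RNY4 had 11 and 15, 12 and 26, none, and 0 and 1 reads in the same groups. With a floor of 3 reads over the group, RNY5 was at least 8.98-fold lower and RNY4 at least 5.30-fold lower in WT spindles. In STAU1-KO spindles the counted ratios were 28.8 (4.89 to 1164) for RNY5 and 26.0 (4.40 to 1056) for RNY4. Both fell in WT (limma adjusted p = 0.000188 for RNY5 and 0.000532 for RNY4) and in STAU1-KO cells (limma adjusted p = 0.000935 and 0.00180). RNY3 had 1 and 0 reads for WT input, 2 and 1 for STAU1-KO input and none in spindles, so that no fold is given. RNY3 passed the filter on low values (FPKM of 1 in 2 libraries) only through input libraries, and RNY4 and RNY5 through the 4 input libraries and 1 STAU1-KO spindle library.

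RN7SK stood at 61144 and 53706 FPKM in WT input and at 6947 and 6140 FPKM in WT spindles. STAU1-KO values were 54199 and 50220 FPKM in input and 4046 and 4681 FPKM in spindles. The groups do not overlap, though the share of all genes that separate like this from input to spindle was not computed. Replicates differed by at most 1.16-fold while the input mean was 8.78-fold the spindle mean in WT and 11.97-fold in the knockout. The changes of -3.13 (SE 1.31) and -3.58 nonetheless missed the threshold in limma, with adjusted p = 0.0793 and 0.0618. The trend in the prior variance gave RN7SK a prior SD of 2.17, against a residual SD of 0.124 between its own replicates and a median prior SD of 0.144 over all genes. Only 8 genes have a mean log2 level over 12, RN7SK among them. Without that trend the adjusted p in limma was 0.000122 for WT and 0.000441 for the knockout. The authors' deposited table gave -3.13 (adjusted p = 1.80e-78) and -3.58 (adjusted p = 3.60e-102).

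The 7SL RNAs were lower in every spindle library than in any input library of the same genotype. RN7SL1 stood at 78476 and 75558 FPKM in WT input and at 7705 and 18144 FPKM in WT spindles. In STAU1-KO cells it stood at 55885 and 52125 FPKM in input and at 16246 and 16491 FPKM in spindles. The WT spindle replicates differed by 2.35-fold, and by share of library reads they stood at 0.312% and 0.356%. RN7SL2 stood at 56179 and 57948 FPKM in WT input and at 9359 and 26120 FPKM in WT spindles, and its STAU1-KO values were 39895 and 37698 FPKM in input and 13766 and 15083 FPKM in spindles. Input and spindle libraries do not overlap for either gene, and no difference is read from this separation alone.

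RN7SL1 changed by -2.70 (SE 1.81, limma adjusted p = 0.236) in WT and by -1.72 (limma adjusted p = 0.461) in the knockout. RN7SL2 changed by -1.87 (SE 1.71, limma adjusted p = 0.376) and by -1.43 (limma adjusted p = 0.519). The residual SDs were 0.439 for RN7SL1 and 0.527 for RN7SL2 beside prior SDs of 2.96 and 2.77. Without the trend, RN7SL1 had an adjusted p in limma of 0.00158 for WT and 0.0113 for the knockout, and RN7SL2 of 0.0121 and 0.0384. Without WT spindle replicate 2 the WT values were -3.32 for RN7SL1 and -2.61 for RN7SL2, against -2.09 and -1.13 when replicate 1 was the one left out. The authors' deposited table called both genes lower in WT (-2.58, adjusted p = 2.39e-14, and -1.69, adjusted p = 1.84e-05) and in STAU1-KO cells (-1.72, adjusted p = 7.81e-07, and -1.43, adjusted p = 0.000400).

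The RN7SL1 to RN7SL2 read ratio was 1.41 and 1.32 for WT input, 1.41 and 1.40 for STAU1-KO input, 0.832 and 0.702 in WT spindles and 1.19 and 1.10 in STAU1-KO spindles. Spindle ratios were thus below input ratios in both genotypes, with no overlap. The loci are near-identical copies, so how reads were split between them is uncertain, and this ratio rests on the authors' assignment of reads. RN7SL3, listed as a further 7SL locus, stood at 5756 and 5300 FPKM in WT input, 915 and 2179 FPKM in WT spindles, 2748 and 2533 FPKM in STAU1-KO input and 1125 and 1110 FPKM in STAU1-KO spindles.

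Over the 9 RNAs, 4 were called lower and none higher in WT spindles, and 4 lower and none higher in STAU1-KO spindles. They were RPPH1, RNY1, RNY4 and RNY5 in both. Of all 17217 genes tested, 32.7% were called lower and 27.6% higher in WT (60.3% in all), and 27.1% lower and 22.1% higher in STAU1-KO cells (49.2% in all). In the authors' deposited tables, 23.2% of genes with an adjusted p were called lower in WT, 22.5% in STAU1-KO cells and 0.661% in STAU1-KO input. The median change of the 9 RNAs was -3.13 for WT and -3.22 for the knockout, against 0 and -0.02 over all genes. At an unadjusted p under 0.05, 4 and 6 of the 9 passed, where 64.9% and 56.9% of all genes did. With the trend left out, 7 were lower in WT, 7 were lower in STAU1-KO cells, and RMRP alone was higher, in WT. Of all genes 32.3% were then lower and 27.7% higher in WT, and 26.8% lower in STAU1-KO cells. By limma-voom on the recovered reads 7 were lower in each genotype and none higher, beside 33.3% and 29.8% of all genes lower.

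Changes depend on the scaling between libraries. The median of all genes moved from 0 to 0.30 in WT with upper quartiles set equal and to 0.73 with protein-coding sums set equal, and from -0.02 to 0.18 and 0.49 in STAU1-KO cells. Relative to that median, RPPH1 changed by -3.42 and -3.27 in WT and by -6.70 and -6.59 in STAU1-KO cells under these scalings. RMRP stood 0.61 and 0.76 above it in WT and 0.41 and 0.52 above it in STAU1-KO cells, without passing the test. RN7SK lay at -3.01 and -2.86 in WT and at -3.48 and -3.37 in the knockout, and with coding sums set equal it passed in the knockout (limma adjusted p = 0.0261) but not in WT (0.0559).

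**Figure D3:**
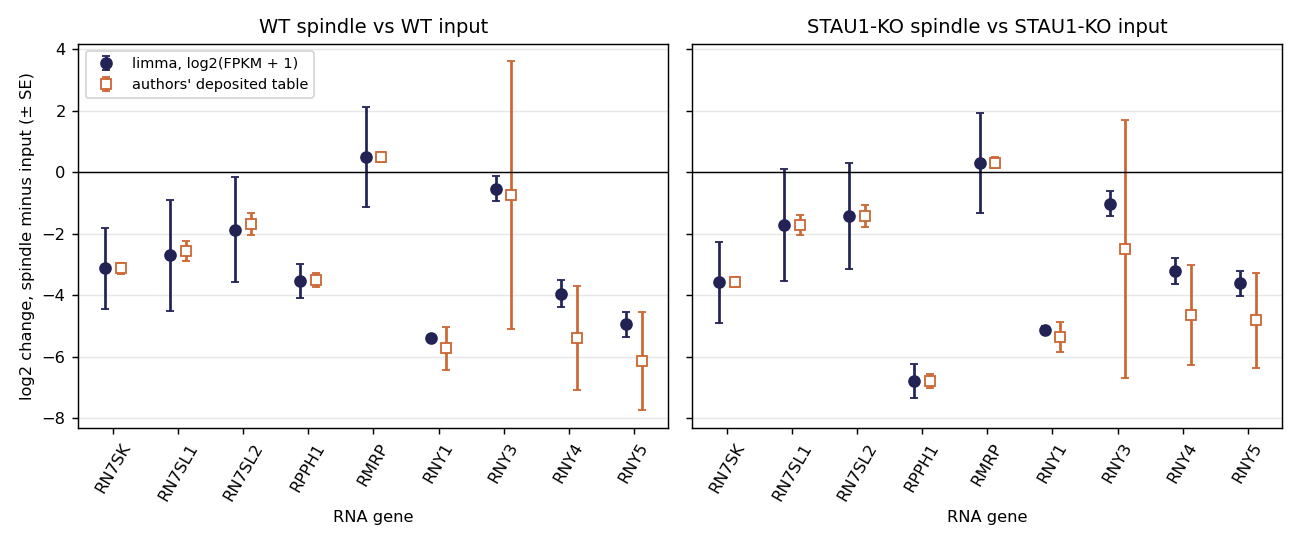
The log2 change from input to spindle with its SE for each RNA, by limma on log2(FPKM + 1) (filled circles) and from the authors' deposited table (open squares), in WT at left and STAU1-KO at right. Estimates lie close together for the abundant RNAs while the limma SEs of RN7SK, RN7SL1, RN7SL2 and RMRP are wider, and RPPH1 is at -3.54 in WT and -6.80 in STAU1-KO cells.

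STAU1-KO input was set against WT input to ask whether whole-cell levels differed. None of the 9 RNAs passed the test (0 by limma-voom and 0 in the authors' deposited table), where 0.192% of all genes did, 0.11% lower and 0.0813% higher. At an unadjusted p under 0.05, 0 of the 9 and 8.84% of all genes passed. The limma changes ran from -0.65 for RNY5 to 0.48 for RNY3, with a median of -0.35. RPPH1 changed by -0.47 (limma adjusted p = 0.889). Both STAU1-KO input values lay below both WT values for RPPH1, RMRP, RN7SL1, RN7SL2 and RNY5. For RNY1 the STAU1-KO input values lay above the WT values. The share of all genes that separate like this was not computed. With 2 libraries per group, no difference is read from the separation. The log2 difference of RN7SK was -0.14.

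In spindles, RPPH1 was the one member of the 9 that passed the limma test between the genotypes. It changed by -3.74 in STAU1-KO against WT spindles (SE 0.56, adjusted p = 0.0125), both STAU1-KO libraries lying below both WT libraries and the WT mean being 13.6-fold the STAU1-KO mean. Of all genes, 5.52% were called lower, 10.6% higher and 16.1% in all. Without STAU1-KO spindle replicate 1 or 2 the adjusted p in limma was 0.174 and 0.150 at changes of -3.59 and -3.88, and with the spindle groups alone it was 0.141. Without WT spindle replicate 2, the library rich in 28S RNA, the change was -3.43 (limma adjusted p = 0.000565). Each fit with a library left out has 1 library in that group, which is assumed to vary like the other groups. The fit of the spindle groups alone keeps 2 libraries in each. The part that the 28S share has in the RPPH1 values was not tested.

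The other changes between spindles were -0.59 for RN7SK, 0.47 for RN7SL1, -0.12 for RN7SL2, -0.53 for RMRP and 0.40 for RNY1 (limma adjusted p = 0.0589), none of them called. RN7SK values of STAU1-KO spindles lay below both WT values. RNY1 values lay above both WT values, on 7 and 5 reads against 3 and 2 in WT spindles. The p-values of RNY1 between spindles thus rest on few reads. RMRP values did not overlap either, with 21770 and 26647 FPKM under 35704 and 33929 FPKM. How many of all genes separate like this between spindles was not computed. RN7SL1 and RN7SL2 values of STAU1-KO spindles lay between the WT replicates. Without the trend RN7SK also passed (limma adjusted p = 0.0412). RNY1 passed as higher in STAU1-KO spindles in 3 of 18 settings, namely with a pseudocount of 0.1 (limma adjusted p = 0.0375) and with either WT spindle library left out (limma adjusted p = 0.0304 and 0.0168), again with 1 library for that group.

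The test of whether the spindle-to-input change itself differed between genotypes gave -3.26 for RPPH1 (SE 0.79, unadjusted p = 0.00548, limma adjusted p = 0.104). None of the 9 RNAs passed, and 0.0929% of all genes did, 0.0174% lower and 0.0755% higher. At an unadjusted p under 0.05, 1 of the 9 and 20.2% of all genes passed. RPPH1 passed in 5 of 17 settings, whose adjusted p ran from 0.00223 to 0.452, the highest without STAU1-KO spindle replicate 1. They were limma-voom on the recovered reads (-3.30, adjusted p = 0.0281), the fit without the trend (limma adjusted p = 0.0455), equal coding sums (-3.56, limma adjusted p = 0.0458), and the fits without WT spindle replicate 1 (-3.57, limma adjusted p = 0.00487) or 2 (-2.96, limma adjusted p = 0.00223). The last pair has 1 WT spindle library, so that its p-values rest on the spread of the other groups. Across the other RNAs the difference ran from -0.48 for RNY3 to 1.33 for RNY5.

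The mRNAs of the partner proteins were examined by the lists of each particle. The shares of all genes to set beside them are 32.7% lower and 27.6% higher in WT, and 27.1% and 22.1% in STAU1-KO cells. With equal coding sums 12.6% of all genes were lower in WT and 10.4% in STAU1-KO cells. Higher were then 8921 of 17217 genes in WT and 6798 in STAU1-KO cells. Most of the RNase P and RNase MRP protein mRNAs fell in spindles, 9 of 11 in WT and 8 of 11 in STAU1-KO cells with none higher, at medians of -1.07 and -0.88. POP4, shared by both enzymes, went from 7.77 ± 0.0745 to 2.18 ± 0.357 FPKM in WT and from 6.78 ± 0.0270 to 2.90 ± 0.0163 FPKM in STAU1-KO cells (SD, n = 2, limma adjusted p = 0.000134 and 0.000756). POP5 went from 21.2 ± 0.203 to 6.48 ± 0.0163 FPKM and RPP25L from 29.5 ± 0.839 to 6.90 ± 0.737 FPKM in WT. RPP40, a further subunit, went from 6.15 ± 0.117 to 1.72 ± 0.0733 FPKM. With equal coding sums 5 and 3 were lower and 1 and 1 higher, with medians of -0.998 and -0.77 relative to all genes.

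The protein mRNAs of the signal recognition particle and its receptor were lower for 6 of 8 genes in WT and 4 of 8 in STAU1-KO cells, with 1 and 2 higher, at medians of -1.12 and -0.41. SRP9, which binds the Alu end of 7SL RNA with SRP14, went from 53.6 ± 4.003 to 11.1 ± 0.554 FPKM in WT, and SRP14 from 66.3 ± 2.10 to 12.5 ± 6.28 FPKM. The receptor subunit SRPRB went from 26.3 ± 0.705 to 5.35 ± 0.499 FPKM, and SRP54, which binds signal peptides, from 16.2 ± 0.00930 to 9.23 ± 0.376 FPKM. In STAU1-KO against WT spindles, 4 of these 8 genes were higher and none lower, where 10.6% of all genes were higher and 5.52% lower. Among the 4 were SRP9 (1.08, limma adjusted p = 0.00746) and SRP54 (0.83, limma adjusted p = 0.00650). With equal coding sums 4 were lower and 2 higher in WT, and 3 lower and 4 higher in STAU1-KO cells, where the median was 0.20, or -0.29 relative to all genes.

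Of 10 genes for Y RNA binding proteins, 8 were lower in WT and 4 in STAU1-KO spindles, and none was higher, at medians of -1.03 and -0.50. TROVE2, which encodes Ro60, went from 12.3 ± 0.716 to 5.01 ± 0.536 FPKM in WT and from 19.1 ± 0.706 to 10.1 ± 1.09 FPKM in STAU1-KO cells. YBX1, a cold shock domain protein, went from 487.3 ± 71.0 to 57.2 ± 32.6 FPKM in WT, HNRNPK from 153.2 ± 9.40 to 54.3 ± 20.4 FPKM and the exoribonuclease gene DIS3L from 9.75 ± 0.755 to 5.52 ± 0.860 FPKM. With equal coding sums 2 were lower and 2 higher in WT, with a median of -0.08, and 1 lower and 3 higher in STAU1-KO cells, with a median of 0.17.

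The 7SK list was mixed, with 4 of 7 lower and 1 higher in WT and 3 lower and 1 higher in STAU1-KO cells, at medians of -0.42 and -0.21. CCNT1, the cyclin of P-TEFb, went from 25.01 ± 0.705 to 10.8 ± 1.68 FPKM in WT, MEPCE from 23.9 ± 1.17 to 14.8 ± 2.25 FPKM, and LARP7 from 13.8 ± 1.06 to 6.34 ± 4.19 FPKM. CDK9, the kinase, went from 12.3 ± 0.434 to 17.4 ± 3.77 FPKM (limma adjusted p = 0.0408). With equal coding sums none was lower and 3 were higher in WT, where 12.6% of all genes were lower and 8921 of 17217 higher. The median of the list turned to 0.33, or -0.40 relative to all genes.

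Among 10 factors of the polymerase III promoters that drive RN7SK, RPPH1, RMRP and the Y RNAs, 7 were lower and 1 higher in WT, and 2 were lower in STAU1-KO cells, at medians of -0.60 and -0.09. SNAPC5 of the snRNA activating complex went from 13.0 ± 1.26 to 3.65 ± 0.442 FPKM in WT and SNAPC2 from 13.4 ± 1.12 to 5.98 ± 2.02 FPKM. BRF2, the initiation factor of these promoters, went from 8.50 ± 0.355 to 3.85 ± 0.818 FPKM and ZNF143, an activator, from 10.54 ± 0.187 to 6.34 ± 0.233 FPKM. With equal coding sums the medians were 0.29 and 0.48, or -0.44 and -0.01 relative to all genes, with 1 lower and 4 higher in each genotype.

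**Figure D4:**
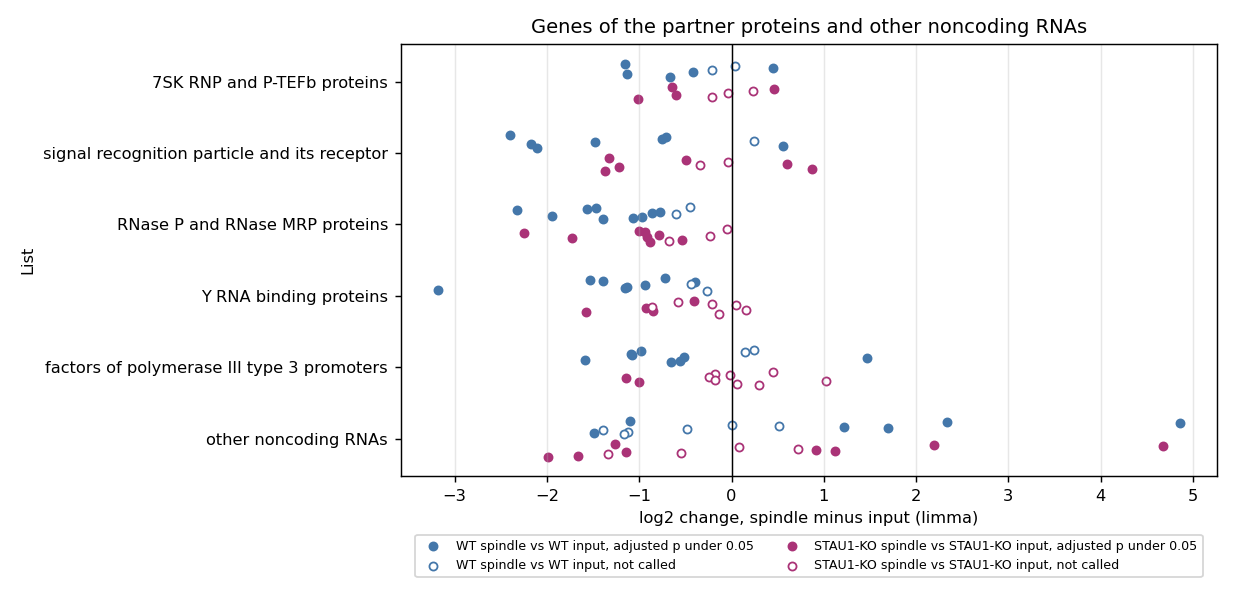
The log2 change from input to spindle by limma for the genes of each list, WT in blue and STAU1-KO in purple, with filled points for genes at an adjusted p under 0.05. Points of the RNase P and RNase MRP and of the Y RNA binding lists lie almost entirely at or below 0, while the other noncoding RNAs spread to both sides, with NEAT1 at 4.86 in WT.

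Not every noncoding RNA behaved like these. Of 12 others, 4 were higher and 2 lower in WT spindles, and 4 were higher and 4 lower in STAU1-KO spindles. NEAT1 and MALAT1, nuclear RNAs whose 3′ ends RNase P cleaves, went from 11.2 ± 0.926 to 371.1 ± 155.7 FPKM and from 343.8 ± 23.2 to 1824 ± 760 FPKM in WT. RNU6ATAC of the minor spliceosome went from 21.8 ± 8.11 to 70.3 ± 5.87 FPKM, and BCYRN1, a polymerase III transcript, from 2.63 ± 0.232 to 0.720 ± 0.386 FPKM. The directions of NEAT1, MALAT1 and RNU6ATAC were the same in STAU1-KO cells (limma adjusted p = 0.000253, 0.00437 and 0.0142). Short genes were more often called higher than lower, and less often called lower than all genes. Of 2247 tested genes of 350 nt or less that are no members, 652 were higher and 135 (6.01%) lower in WT. Their median there was 0.72. In STAU1-KO cells 378 were higher and 129 (5.74%) lower, at a median of 0.41.

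Loci that resemble the members were mostly low. The 36 listed RN7SK pseudogenes summed to between 83.3 and 151.5 FPKM per library, against at least 4046 FPKM for RN7SK. Of 33 tested, 4 were lower and 9 higher in WT, and 5 lower and 4 higher in STAU1-KO cells. The shares of all genes were 32.7% lower and 27.6% higher in WT, and 27.1% and 22.1% in STAU1-KO cells. RN7SKP203 and RN7SKP255 went with RN7SK, from 18.5 ± 1.01 to 1.55 ± 0.225 FPKM and from 43.0 ± 9.18 to 5.14 ± 2.14 FPKM in WT, while RN7SKP16 went from 1.62 ± 0.102 to 11.3 ± 2.84 FPKM and RN7SKP180 from 0.809 ± 0.154 to 5.98 ± 2.50 FPKM. Of 141 further 7SL loci, 51 were higher and 8 lower in WT, and 23 higher and 11 lower in STAU1-KO cells. RN7SL739P was listed at 0 in both WT input libraries and at 3.03 ± 0.177 FPKM in WT spindles, and RN7SL449P went from 0.744 ± 0.0704 to 4.43 ± 0.641 FPKM. Reads of such copies may be shared with the members and are uncertain.

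Genes named simply Y_RNA in the table, 172 in all, summed to 268.2 and 296.9 FPKM in WT input, 944.4 and 602.7 FPKM in WT spindles, 310.7 and 307.5 FPKM in STAU1-KO input and 589.8 and 572.2 FPKM in STAU1-KO spindles. All 4 spindle sums lay above all 4 input sums, the opposite side to RNY1. Of 14 tested RNY pseudogenes with a symbol, 3 were higher in WT, 1 in STAU1-KO cells and none was lower. Of all genes, 27.6% and 22.1% were higher and 32.7% and 27.1% lower. RNY1P9 was listed at 0 in WT input and at 1.71 ± 0.580 FPKM in WT spindles, and it rose in STAU1-KO cells from 0.305 ± 0.432 to 4.08 ± 2.33 FPKM (limma adjusted p = 0.00773). These loci rest on few reads, 8 to 40 per library over all 16 listed RNY pseudogenes. A read of RNY1 was worth 1.02 and 0.894 FPKM in WT input but 1.26 and 2.05 FPKM in WT spindles.

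Likeness was measured as the root mean square difference of log2(FPKM + 1) over the 8 libraries, after centring each gene on its own mean. Among the members, RN7SL1 and RN7SL2 lay closest, at 0.358, then RNY4 and RNY5 at 0.432. RPPH1 and RMRP lay farthest apart, at 3.01. Nearest to RN7SK among other tested genes were RPS2P46 (0.231), RPLP0 (0.239) and RN7SKP203 (0.291), and nearest to RN7SL1 were RPLP2 (0.113), PHB (0.116) and CRABP2 (0.118). RN7SL2 had ALYREF (0.122), AURKAIP1 (0.125) and ACTG1 (0.134) as its nearest genes, and RMRP had IBA57 (0.0827), RFX2 (0.0954) and USP43 (0.0973). For RPPH1 no gene lay close, the nearest being the mitochondrial MT-ND3 (1.10), MT-CO2 (1.12) and MT-CO3 (1.43). RNY1 had MT-ND3 (0.575), MIF (0.617) and COX8A (0.674), RNY5 had MIF (0.396), ROMO1 (0.472) and RPS23P8 (0.478), and RNY4 had RPS29 (0.364), RPS23P8 (0.392) and ROMO1 (0.442). RNY3, with at most 2 reads in a library, was nearest to RNA5SP383 (0.142), SUB1P2 (0.180) and RNU6-1054P (0.248).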

How the data were processed

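Per the submitters' processing notes, reads were handled with FastQC, TopHat, featureCounts and DESeq2 on GRCh37, with no versions. The authors deposited FPKM values per library and per group, TPM per group, and GC percent. Their 3 comparison tables, as deposited, hold a base mean (a normalised signal), log2 fold changes with SE, a Wald score and p-values.

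Since the deposited values are FPKM, limma 3.58.1 in R 4.3.3 was fitted to log2(FPKM + 1) for the 17217 genes with an FPKM of at least 1 in at least 2 libraries. One model of 4 group means used every library, and its prior variance followed the mean level (4 residual and 2.25 prior degrees of freedom). Tests were two-sided, with Benjamini-Hochberg adjustment over all genes tested, and called at an adjusted p under 0.05. Fold changes of low genes are understated by the added 1. Whole reads were recovered from FPKM and base means, with 100% of values within 0.01 of a whole number, and served for depth, ratios, counting intervals and limma-voom. Gene sequences came from GENCODE release 29, and those of some members are not reported here. Scripts were tested on simulated data. The members, lists and tests were chosen with earlier results of these data known. Named were all members, STAU1, up to 4 genes of each list with the smallest p in WT, and the 3 genes nearest to each member. Other genes were named after their values were seen.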

Additional observations from a re-analysis of the deposited data

How the results depend on the processing

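With 2 libraries per group, calls for the most abundant RNAs depend on the estimate of spread. Members called in WT (4) numbered 3 with only the groups compared, 8 without the trend and 7 by limma-voom, which was chosen after seeing the data. In STAU1-KO cells (4) they numbered 7 without the trend, 8 with only the groups compared, 7 by limma-voom and 4 to 7 with a library left out. Between spindles (1) they numbered 2 with a pseudocount of 0.1, 2 without the trend, 0 with only the groups compared and 0 to 2 with a library left out, and for the difference of changes (0) they numbered 1 with equal coding sums, 1 without the trend, 1 by limma-voom and 0 to 1 with a library left out.

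Over all genes, calls between inputs (33) numbered 19 with equal upper quartiles, 8 with equal coding sums, 0 with only the groups compared, 10 with the replicate block and 134 by limma-voom, and 2 to 421 with a library left out. Between spindles (2778) they numbered 0 with only the groups compared, 1828 with the replicate block and 0 to 6597 with a library left out. For the difference (16) they numbered 174 with a pseudocount of 0.1, 10 without a filter, 103 with an FPKM of 1 in at least 4 libraries, 0 with equal upper quartiles, 294 with equal coding sums, 0 with the replicate block, 396 by limma-voom and 0 to 3939 with a library left out. With a library left out, WT calls (10384) ran from 7753 to 11854 and STAU1-KO calls (8473) from 4926 to 11185. Higher against lower calls were 4755 to 5629 in WT and 3803 to 4670 in STAU1-KO cells, 6607 to 4033 and 5117 to 3379 with equal upper quartiles, and 8921 to 2161 and 6798 to 1796 with equal coding sums.

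Of the values of single members under other settings, 697 kept direction and side of the threshold, 42 gained the call, 4 lost it and 8 changed sign without being called. With a library left out, RNY3 ran from -0.071 to 1.02 and RNY4 from -0.55 to 0.30 between inputs, RN7SL1 from -0.15 to 1.09 and RN7SL2 from -0.86 to 0.62 between spindles, and RN7SL2 from -0.30 to 1.18 and RNY3 from -1.02 to 0.071 for the difference. By limma-voom RNY4 and RNY5 were each -0.081 between spindles. Except where sample number shows it, the cause was not tested. Equal replicate numbers were not taken as pairs in the main fit. Deviations of same-numbered libraries correlated at -0.0534 to 0.0185 over 17217 genes. With 1 difference per group, this cannot decide whether such libraries came from the same culture. The replicate block changed no call of a member. The count models planned were not run, because the deposited values are FPKM. Depth limits the Y RNAs, which had at most 7 reads in a spindle library.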
